A study of Mus musculus with 24 samples.

Results

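The genes described here encode the integrin α subunits, the integrin β subunits and the laminin chains of the mouse. They were selected by a pattern of gene symbols, and the deposited table of read counts held 38 of them among 49315 genes: 19 α subunit genes, 8 β subunit genes and 11 laminin genes under 37 symbols, since *Itgam* was listed under 2 Ensembl identifiers. RNA came from MS03 cells, a murine schwannoma-derived Schwann cell (SC) line of genotype *Nf2*-/-, so every group, the controls included, lacked *Nf2*, and neither an *Nf2*-intact line nor a second *Nf2*-deficient line was part of the comparison. Cells received dimethyl sulfoxide (DMSO) alone, 1 of 4 focal adhesion kinase (FAK) inhibitors, or 1 of 3 FAK-targeting PROTACs, which are bifunctional molecules that recruit a ubiquitin ligase to their target. The dose was 1 μM for defactinib, VS-4718, GSK2256098 and IN10018 (ifebemtinib), the inhibitors, and also for PROTAC FAK degrader 1. It was 0.1 μM for the remaining PROTACs, GSK215 and BSJ-04-0146. All treatments lasted 24 hours, and each of the 8 groups had 3 libraries that the labels call biological replicates of the same line, so that *P* values measure the spread between such cultures. The comparison of each drug with DMSO asks how the RNA of the matrix receptors upstream of FAK, and of a family of their ligands, stood after FAK was targeted.

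Integrins are heterodimers of an α and a β chain that bind matrix proteins outside the cell and, through talin, kindlin and paxillin, bring FAK to the membrane inside it. Laminins are trimers of an α, a β and a γ chain, they form the sheet of the basal lamina, and in nerve the SC both secretes them and binds them through integrins and dystroglycan. Partner choice follows the subunit: the β1 chain pairs with most α chains, α3, α6 and α7 make laminin receptors, α1, α2, α10 and α11 make collagen receptors, and αv, α5, α8 and αIIb make receptors for RGD-containing ligands such as fibronectin.

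Libraries held 14472462 to 27449516 counted reads, with a median of 22606532.5. Each of the 9 PROTAC libraries was shallower (at most 21588406 reads) than each of the other 15 (at least 21654444), so low genes are less precise there. A gene was tested if it passed the count filter, which left 16070 genes and 29 of the 38 genes described here (13 α, 7 β and 9 laminin genes). Levels are given in CPM, the reads of a gene scaled to a common library size with factors from the trimmed mean of M values (TMM). A gene is called where the quasi-likelihood test of edgeR gave *P* under 0.05 after Benjamini-Hochberg adjustment over those 16070 genes. SC markers were present in DMSO, although *Fabp7*, a marker of immature SCs, had at most 3 counts in each DMSO library. The summed level of the 13 SC markers was 85.1 to 87.3 CPM in DMSO and differed between groups, from 90.0 to 91.5 CPM with IN10018 up to 336 to 349 CPM with GSK215 and 306 to 333 CPM with BSJ-04-0146, and its part in the results was not tested. *Nf2* had 2360 to 5066 counts in each library, which cannot show whether exons of the gene are deleted.

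In DMSO, *Itgb1*, the common β chain, was the most abundant of the 38 genes per kilobase of exon, at 232 ± 5.55 CPM per kb (SD, n = 3). *Itga3*, a laminin receptor chain that pairs with it, followed at 109 ± 0.937 CPM per kb. Next came *Lama5*, *Lamc1* and *Lamb1*, an α, a γ and a β chain that can form 1 laminin trimer, at 74.9 ± 0.984, 59.1 ± 0.518 and 53.2 ± 0.839 CPM per kb. Below them lay *Itgb5* (46.7 ± 1.10), the laminin receptor chain *Itga7* (38.4 ± 0.304), *Itgav* (27.7 ± 0.679) and the fibronectin receptor chain *Itga5* (20.2 ± 0.279 CPM per kb). *Lamb2* and *Itgb7* stood at 12.7 ± 0.0993 and 11.8 ± 0.530 CPM per kb, and *Itga6* and *Itgb2* at 5.81 ± 0.140 and 4.58 ± 0.320 CPM per kb. No neighbours in the order of these 13 genes had overlapping DMSO libraries. The remaining 15 tested genes were under 1 CPM per kb, in the order *Itga2b*, *Itgae*, *Lama4*, *Itga10*, *Itga8*, *Lama2*, *Itgb8*, *Itgb4*, *Itgb3*, *Itga1*, *Lamc3*, *Itga4*, *Itga2*, *Lamb3* and *Itga11*. There most neighbours overlapped, other than *Itgae* with *Lama4*, *Itga8* with *Lama2* and *Itga1* with *Lamc3*. They include *Lama2* (0.406 ± 0.0336 CPM per kb), the α chain of the laminin of the mature SC basal lamina, *Lama4* (0.744 ± 0.0117) and *Itgb4* (0.368 ± 0.0487), which pairs with α6 in myelinating SCs. *Itga4* (0.123 ± 0.0227), *Itga2* (0.0913 ± 0.0168), *Lamb3* (0.0828 ± 0.0416) and *Itga11* (0.0748 ± 0.0230 CPM per kb) were at the lower end.

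**Figure D1:**
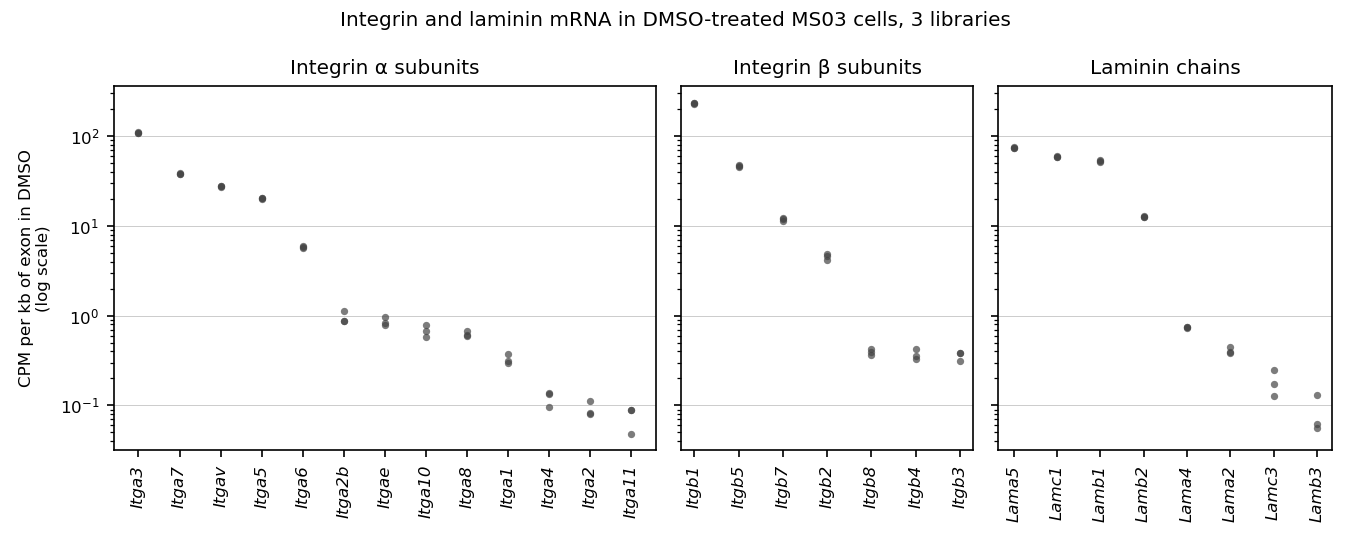
Level of 28 tested integrin and laminin genes in the 3 DMSO libraries, in CPM per kilobase of exon on a log axis, with genes ordered by level within α subunits, β subunits and laminin chains. Points of a gene lie close together above 1 CPM per kb, and *Itgb1* is highest at 232 CPM per kb.

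The remaining 9 genes were near or at 0, with at most 4 counts in any of the 24 libraries. They were *Itga9*, *Itgad*, *Itgal*, *Itgax*, *Itgam* under both identifiers (GENCODE lists the second as *Gm49368*, which shares 3450 exon bases with *Itgam*), *Itgb6*, *Lama1* and *Lama3*. *Itgal*, *Itgam*, *Itgax* and *Itgad* encode the α chains that pair with β2 on leukocytes, and *Itgb6* encodes an epithelial partner of αv. Change with a drug could not be measured for these 9 genes at this depth.

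Promoter sequences are shown for the most abundant β and α subunit genes, *Itgb1* and *Itga3*, and for the α subunit genes with the highest and the lowest log2 fold change in the study, *Itga2* with GSK215 and *Itga8* with PROTAC FAK degrader 1. Each is the 250 bases before the annotated start in RefSeq (GRCm38.p6), written 5′ to 3′ on the strand of the gene, with capitals for the letters GGGCGG (the GC box bound by Sp1) and GGAATG (a TEAD motif). Windows are chr8:128685404-128685653 (plus strand) for *Itgb1*, chr11:95076715-95076964 (minus strand) for *Itga3*, chr13:114932101-114932350 (minus strand) for *Itga2* and chr2:12301945-12302194 (minus strand) for *Itga8*. *Itga3* has a second annotated start, which is not shown.
Itgb1: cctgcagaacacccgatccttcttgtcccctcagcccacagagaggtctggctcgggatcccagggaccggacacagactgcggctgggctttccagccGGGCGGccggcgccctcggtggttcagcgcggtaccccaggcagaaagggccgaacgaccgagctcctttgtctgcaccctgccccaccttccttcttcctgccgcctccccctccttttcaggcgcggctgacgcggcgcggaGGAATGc
Itga3: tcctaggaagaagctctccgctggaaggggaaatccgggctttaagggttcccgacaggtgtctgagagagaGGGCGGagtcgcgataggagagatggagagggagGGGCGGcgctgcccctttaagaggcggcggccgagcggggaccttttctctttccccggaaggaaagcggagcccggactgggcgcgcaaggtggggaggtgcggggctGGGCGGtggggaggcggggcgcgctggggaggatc
Itga2: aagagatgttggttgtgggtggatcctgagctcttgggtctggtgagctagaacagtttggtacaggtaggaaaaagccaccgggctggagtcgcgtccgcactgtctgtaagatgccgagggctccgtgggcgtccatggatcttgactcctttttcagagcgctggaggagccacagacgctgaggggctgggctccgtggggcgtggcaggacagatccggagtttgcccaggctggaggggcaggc
Itga8: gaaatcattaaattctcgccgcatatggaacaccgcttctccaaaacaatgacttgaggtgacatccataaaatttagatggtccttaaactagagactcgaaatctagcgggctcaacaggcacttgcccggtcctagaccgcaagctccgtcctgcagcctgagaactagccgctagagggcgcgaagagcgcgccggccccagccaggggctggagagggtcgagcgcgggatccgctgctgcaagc

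Of the 29 tested genes, 19 had a promoter entry, 21 promoters in all. Letters were searched on both strands of each 250-base window. GGGCGG was found in 7 of the 19 genes and in 33.0% of all 32536 promoters of the table. It was in the promoters of 6 of the 9 genes at or above 10 CPM per kb in DMSO and of 1 of the 10 genes below that level. The same split was not made over all genes, so no link with level can be drawn. *Itga7* and *Lamc1*, also above that level, had no promoter entry. GGAATG was found in 3 of the 19 genes, against 12.6% of all promoters. None of the 21 windows held TGANTCA, an AP-1 motif that 6.73% of all promoters hold. None held CACGTG, an E-box found in 6.04% of promoters. A TATA box, written as TATAAA and found in 12.3% of promoters, was in 0 windows as well. Absence says only that these letters are not in these bases. The collagen receptor genes *Itga1* and *Itga2* are neighbours on chromosome 13 with 20995 bases between them.

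Against DMSO, all 7 drugs changed some of the 29 tested genes, and the balance of direction differed. PROTAC FAK degrader 1 moved the set mostly down: 23 of 29 genes were called, 4 higher and 19 lower, where 66.8% of all tested genes were called, 34.1% higher and 32.7% lower. Fibroblast markers moved with it: their summed level was 2074 to 2130 CPM in DMSO and 1311 to 1328 CPM with PROTAC FAK degrader 1, and all 4 of the 6 markers that could be tested (*Col1a1*, *Col1a2*, *Col3a1* and *Pdgfra*) were called lower. The other 2, *Dcn* and *Lum*, had at most 3 counts in every library, and the part of these markers in the result was not tested. Their summed level was 2286 to 2359 CPM with GSK215 (3 markers called higher and 1 lower), 1842 to 1930 CPM with BSJ-04-0146 (2 and 2) and 1913 to 2268 CPM over the libraries of the 4 inhibitors. Defactinib moved it mostly up, with 19 genes called, 16 higher and 3 lower, beside 22.4% of all genes called, 11.4% higher and 11.0% lower. VS-4718 gave 18 calls, 14 higher and 4 lower (39.2% of all genes, 20.4% higher and 18.9% lower), and GSK2256098 gave 8 calls, 7 higher and 1 lower (12.5% of all genes, 6.36% higher and 6.09% lower). The last count fell to 3 without GSK2256098 replicate 3 and to 5 without GSK2256098 replicate 1 or DMSO replicate 2. With IN10018, 7 genes were called, 0 higher and 7 lower, against 13.3% of all genes, 6.44% higher and 6.85% lower, a count that fell to 4 without IN10018 replicate 2. At 0.1 μM, GSK215 gave 20 calls, 16 higher and 4 lower (54.7% of all genes, 27.4% higher and 27.2% lower), and BSJ-04-0146 gave 19, 11 higher and 8 lower (54.6% of all genes, 27.7% higher and 26.9% lower). With library totals in place of TMM factors these splits became 19 higher and 2 lower with GSK215 and 14 higher and 4 lower with BSJ-04-0146, so the balance of direction for both drugs depends on the scaling. The share of members called was 65.5% with defactinib, 62.1% with VS-4718, 27.6% with GSK2256098, 24.1% with IN10018, 79.3% with PROTAC FAK degrader 1, 69.0% with GSK215 and 65.5% with BSJ-04-0146, and with the 3 PROTACs a call as such was common among all genes.

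Changes of at least 0.58 on the log2 scale were fewer. Among called genes 5 reached it with defactinib (1.66% of all tested genes), 7 with VS-4718 (5.62%), 1 with GSK2256098 (0.79%) and 0 with IN10018 (0.678%). With PROTAC FAK degrader 1 there were 16 (31.1%), with GSK215 9 (15.9%) and with BSJ-04-0146 5 (16.3%). Libraries that lay all above or all below the 3 DMSO libraries were seen for 18 and 3 genes with defactinib, where 35.8% of all genes did not overlap in either direction. The same counts were 13 and 4 with VS-4718 (47.6%), 12 and 2 with GSK2256098 (31.2%), 1 and 11 with IN10018 (31.0%), 4 and 19 with PROTAC FAK degrader 1 (69.7%), 17 and 5 with GSK215 (60.7%) and 13 and 9 with BSJ-04-0146 (59.3%).

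The median log2 fold change over the 29 genes was 0.18 with defactinib, 0.11 with VS-4718, 0.12 with GSK2256098, -0.04 with IN10018, -0.61 with PROTAC FAK degrader 1, 0.12 with GSK215 and 0.12 with BSJ-04-0146. Over all 16070 genes it lay between -0.0044 and 0.021 in the same comparisons. With library totals in place of TMM the median of all genes moved to 0.14 with GSK215 and 0.13 with BSJ-04-0146, so members within about that distance of 0 cannot be given a firm direction for these 2 drugs. Under that scaling the calls on all genes split into 6190 higher and 2867 lower with GSK215, beside 4407 and 4379 with TMM, and into 6018 and 2966 with BSJ-04-0146, beside 4451 and 4320. The VS-4718 split became 4015 and 2394, beside 3273 and 3030, and that of PROTAC FAK degrader 1 became 6280 and 4458, beside 5484 and 5257. Defactinib went to 2063 and 1360, from 1828 and 1766, GSK2256098 to 1242 and 808, from 1022 and 979, and IN10018 to 1197 and 959, from 1035 and 1101. All 7 comparisons share the 3 DMSO libraries, so their values are set side by side and are not independent of each other. In bulk RNA, fewer cells of a type and less RNA per cell cannot be told apart.

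**Figure D2:**
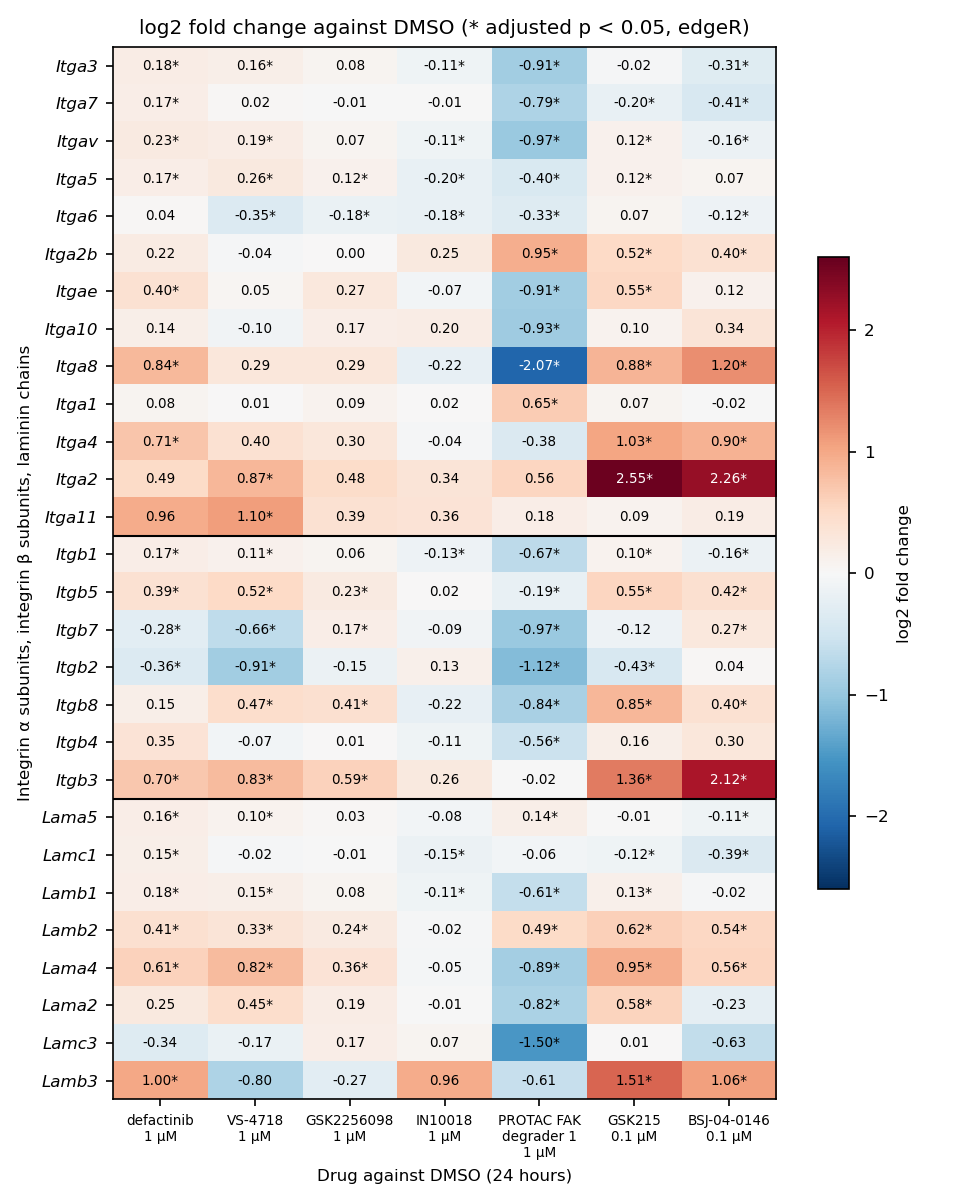
Log2 fold change against DMSO for 28 of the 29 tested genes (1 line per gene, grouped into integrin α subunits, β subunits and laminin chains and ordered by DMSO level) with each of the 7 drugs, with an asterisk for an edgeR adjusted *P* under 0.05. Most of the PROTAC FAK degrader 1 values are below 0, down to -2.07 for *Itga8*, and the highest values are those of *Itga2*, 2.55 with GSK215 and 2.26 with BSJ-04-0146.

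The laminin receptor genes *Itgb1*, *Itga3* and *Itga7* fell together with PROTAC FAK degrader 1 and moved little with the kinase inhibitors. *Itgb1* was 954, 924 and 968 CPM in DMSO and 596, 607 and 582 CPM with PROTAC FAK degrader 1. All 3 treated libraries lay far below the controls, a 1.59-fold decrease (log2 fold change -0.67 ± 0.033 SE, adjusted *P* = 1.31e-20). With defactinib it was 1098, 1054 and 1042 CPM, above every DMSO library and 1.12-fold higher (adjusted *P* = 0.000193). It also rose with VS-4718 (log2 fold change 0.11) and GSK215 (0.10) and fell with IN10018 (-0.13) and BSJ-04-0146 (-0.16). Of these small changes, the VS-4718 call was lost without DMSO replicate 2 (0.09) or VS-4718 replicate 3 (0.07), the GSK215 call without DMSO replicate 2 (0.08) or GSK215 replicate 1 (0.07), and the BSJ-04-0146 call with library totals alone (-0.05).

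*Itga3* was 621, 631 and 623 CPM in DMSO and 340, 333 and 326 CPM with PROTAC FAK degrader 1, a 1.88-fold decrease with no overlap (log2 fold change -0.91 ± 0.032 SE, adjusted *P* = 2.63e-25). BSJ-04-0146 gave 498, 504 and 513 CPM, also below all controls and 1.24-fold lower (adjusted *P* = 6.66e-11). With GSK215 the 3 libraries, at 617, 616 and 611 CPM, sat just under the controls (log2 fold change -0.02, adjusted *P* = 0.547), and with library totals alone this value was 0.10 and past the threshold. Defactinib and VS-4718 raised *Itga3* by 0.18 and 0.16 on the log2 scale, while IN10018 lowered it (-0.11), a call lost without DMSO replicate 2, IN10018 replicate 1 or IN10018 replicate 2 (-0.10 in each).

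*Itga7*, at 309, 313 and 310 CPM in DMSO, read 180, 175 and 183 CPM with PROTAC FAK degrader 1 (1.73-fold lower, adjusted *P* = 2.88e-22) and 238, 234 and 229 CPM with BSJ-04-0146 (1.33-fold lower, adjusted *P* = 3.17e-13). Both groups were separate from the controls. The GSK215 decrease (-0.20) lost its call with library totals alone (-0.07). *Itga6*, the remaining laminin receptor α chain, was called lower with 5 drugs. It ranged from 51.0 to 53.4 CPM in DMSO and fell with VS-4718 (-0.35), PROTAC FAK degrader 1 (-0.33), GSK2256098 (-0.18) and IN10018 (-0.18). Its BSJ-04-0146 decrease (-0.12) was lost without DMSO replicate 1 (-0.11), DMSO replicate 3 (-0.12) or BSJ-04-0146 replicate 2 (-0.07) and with library totals alone (-0.01). *Itgb4*, the other partner of α6, was 2.31, 2.48 and 2.97 CPM in DMSO and 1.33, 1.51 and 2.47 CPM with PROTAC FAK degrader 1. Those groups overlapped, and the decrease (-0.56, adjusted *P* = 0.0109) was lost without DMSO replicate 3 (-0.45) or PROTAC FAK degrader 1 replicate 1 (-0.37) or 2 (-0.46).

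Among receptors for RGD ligands, *Itgav*, *Itga5* and *Itga8* fell with PROTAC FAK degrader 1, and *Itga8* and *Itgb3* rose with GSK215 and BSJ-04-0146. *Itgav*, whose product pairs with β1, β3, β5, β6 and β8, was 289, 302 and 301 CPM in DMSO and 146, 150 and 158 CPM with PROTAC FAK degrader 1. The decrease was 1.96-fold (log2 fold change -0.97 ± 0.037 SE, adjusted *P* = 5.21e-24), and no library came near the controls. Defactinib (359, 333 and 355 CPM, 1.17-fold higher) and VS-4718 (338, 329 and 352 CPM, 1.14-fold higher) raised it above all DMSO libraries, with adjusted *P* = 5.55e-06 and 3.00e-05. Values within 0.2 of 0 on the log2 scale were called with IN10018 (-0.11), GSK215 (0.12) and BSJ-04-0146 (-0.16). The IN10018 call was lost without any 1 of DMSO replicates 2 and 3 or the 3 IN10018 libraries (-0.12 to -0.09) and with library totals alone (-0.10), the GSK215 call without GSK215 replicate 1 (0.09) and the BSJ-04-0146 call with library totals alone (-0.05).

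*Itga8*, a fibronectin and nephronectin receptor chain, had the largest decrease among the 29 genes. It was 4.39, 5.00 and 4.49 CPM in DMSO and 0.689, 1.25 and 1.42 CPM with PROTAC FAK degrader 1, which is 4.19-fold lower (log2 fold change -2.07 ± 0.20 SE, adjusted *P* = 4.71e-12). In the opposite direction it reached 8.55, 8.32 and 7.99 CPM with defactinib (1.78-fold higher, adjusted *P* = 5.45e-06). It rose to 8.54, 9.83 and 7.36 CPM with GSK215 (1.84-fold, adjusted *P* = 4.08e-07) and to 12.1, 10.6 and 9.39 CPM with BSJ-04-0146 (2.30-fold, adjusted *P* = 2.22e-10). None of these 4 treated groups overlapped the controls. VS-4718 (0.29) and GSK2256098 (0.29) did not pass the threshold, although VS-4718 did without its replicate 1 (0.43). Exons of *Itga8* share 372 of 7368 bases with *E030013I19Rik* on the opposite strand. Genes on the opposite strand also share 634 of 10744 exon bases of *Itgav*, 537 of 7015 of *Itgb4*, 382 of 6091 of *Lamc3* and 9 of 8092 of *Itga7*.

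*Itgb3*, which forms receptors for vitronectin and fibrinogen with αv or αIIb, rose with 5 drugs. From 2.26, 2.26 and 1.85 CPM in DMSO it went to 8.66, 8.73 and 10.3 CPM with BSJ-04-0146, 4.34-fold higher (log2 fold change 2.12 ± 0.15 SE, adjusted *P* = 4.80e-15). With GSK215 it was 4.73, 6.04 and 5.48 CPM (2.56-fold higher, adjusted *P* = 4.28e-09). Defactinib (3.84, 3.32 and 3.19 CPM) and VS-4718 (3.92, 3.23 and 4.14 CPM) also lay above all controls, with log2 fold changes of 0.70 and 0.83. The GSK2256098 increase (0.59) was lost without DMSO replicate 3 (0.50) or GSK2256098 replicate 3 (0.47). With PROTAC FAK degrader 1 the libraries, at 2.34, 2.40 and 1.52 CPM, overlapped the controls (-0.02, 95% interval -0.41 to 0.37).

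*Itgb5*, the most abundant αv-specific partner, rose above every control with 5 drugs at narrow spread. It was 163, 165 and 170 CPM in DMSO, 246, 237 and 230 CPM with VS-4718 (1.43-fold higher, adjusted *P* = 2.90e-16) and 241, 241 and 247 CPM with GSK215 (1.46-fold higher, adjusted *P* = 1.63e-17). The log2 fold changes with BSJ-04-0146, defactinib and GSK2256098 were 0.42, 0.39 and 0.23, and the PROTAC FAK degrader 1 value was -0.19 (adjusted *P* = 4.40e-06). *Itgb8*, the partner that holds latent TGF-β with αv, was 4.70, 4.36 and 4.00 CPM in DMSO and 8.40, 7.91 and 7.36 CPM with GSK215 (1.81-fold higher, adjusted *P* = 1.48e-07). It fell to 2.94, 1.98 and 2.31 CPM with PROTAC FAK degrader 1 (1.79-fold lower, adjusted *P* = 4.92e-06), so the controls lay between the 2 groups without overlap. *Itgb8* also rose with VS-4718 (0.47), BSJ-04-0146 (0.40) and GSK2256098 (0.41), the last a call lost without DMSO replicate 2 (0.42), DMSO replicate 3 (0.35), GSK2256098 replicate 1 (0.41) or GSK2256098 replicate 3 (0.39).

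*Itga5* stayed within 0.40 of 0 on the log2 scale with all 7 drugs. It ranged from 98.3 to 101 CPM in DMSO and from 74.2 to 77.0 CPM with PROTAC FAK degrader 1 (-0.40, adjusted *P* = 1.05e-12), and from 115 to 122 CPM with VS-4718 (0.26). *Itga2b*, the platelet integrin chain αIIb, rose with the 3 PROTACs. It was 4.79, 4.74 and 6.14 CPM in DMSO and 10.3, 9.91 and 10.0 CPM with PROTAC FAK degrader 1 (1.93-fold higher, adjusted *P* = 1.31e-09), with smaller increases with GSK215 (0.52) and BSJ-04-0146 (0.40) and no overlap with the controls in any of the 3. Of 5 platelet markers, *Gp9*, *Pf4* and *Ppbp* had at most 3 counts in every library. Only 1 of the 5 could be tested, and it was not called with any of the 3 PROTACs. The summed level of the 5 was 0.905 to 1.54 CPM in DMSO and 0.919 to 1.67 CPM with PROTAC FAK degrader 1. It was 0.657 to 1.43 CPM with GSK215 and 0.976 to 1.12 CPM with BSJ-04-0146. *Itgb3*, whose product pairs with αIIb, rose with GSK215 and BSJ-04-0146 and overlapped the controls with PROTAC FAK degrader 1, as described above. The part of platelet genes in the *Itga2b* result was not tested.

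**Figure D3:**
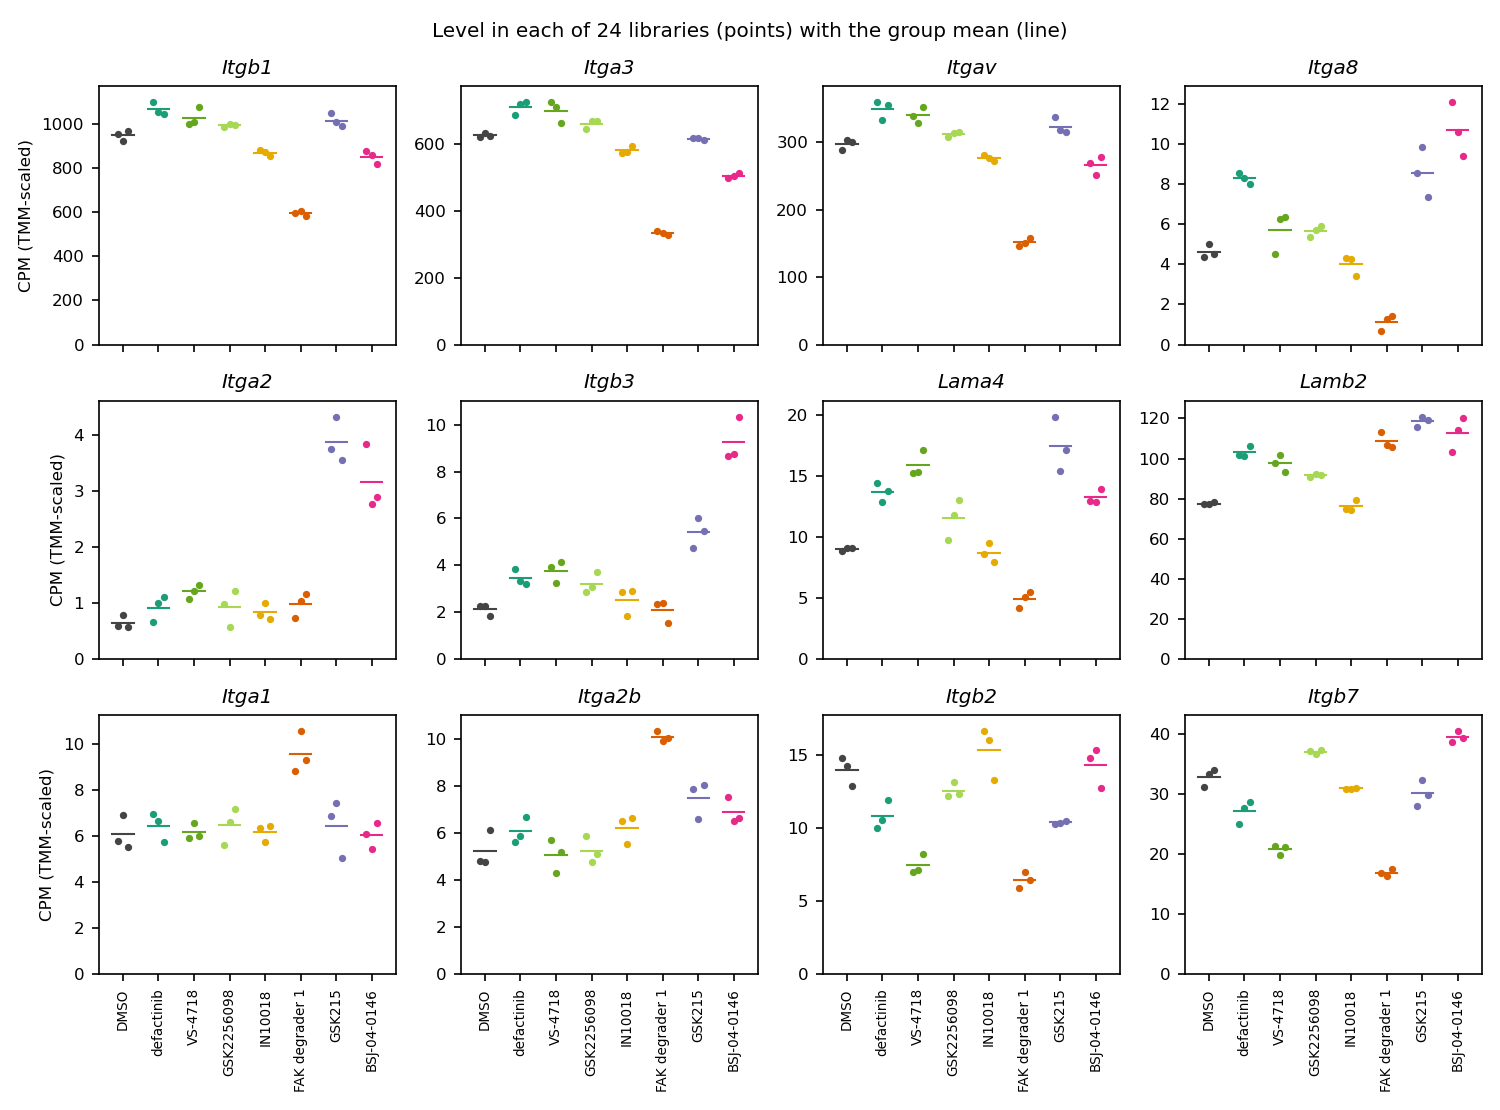
TMM-scaled CPM of 12 integrin and laminin genes in each of the 24 libraries (points) with the mean of each group of 3 (line), on linear axes that start at 0. *Itgb1*, *Itga3*, *Itgav* and *Itga8* are lowest with PROTAC FAK degrader 1, *Itga2* and *Itgb3* are highest with GSK215 and BSJ-04-0146, and *Itga1* and *Itga2b* are highest with PROTAC FAK degrader 1.

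The 4 collagen receptor α chains did not move as a group. *Itga2*, at 0.588, 0.790 and 0.577 CPM in DMSO (13, 21 and 14 counts), was 3.74, 4.33 and 3.55 CPM with GSK215, a 5.86-fold increase (log2 fold change 2.55 ± 0.24 SE, adjusted *P* = 9.64e-12). BSJ-04-0146 gave 3.83, 2.76 and 2.90 CPM (4.78-fold higher, adjusted *P* = 4.30e-10) and VS-4718 gave 1.07, 1.22 and 1.33 CPM (1.83-fold higher, adjusted *P* = 0.0101). All 9 of those libraries exceeded all 3 controls. Its neighbour *Itga1* behaved differently, at 5.74, 6.88 and 5.52 CPM in DMSO and 8.82, 10.5 and 9.30 CPM with PROTAC FAK degrader 1 (1.57-fold higher, adjusted *P* = 4.93e-06). With the other 6 drugs *Itga1* overlapped the controls, with log2 fold changes from -0.02 to 0.09.

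*Itga10* was 3.48, 4.10 and 2.97 CPM in DMSO and fell to 1.93, 1.51 and 2.10 CPM with PROTAC FAK degrader 1 (1.90-fold lower, adjusted *P* = 3.12e-05). It shares 1739 of 5186 exon bases with *Gm42957* on the same strand, so reads of the 2 genes may not have been separable. *Itga11* was called with VS-4718 only (log2 fold change 1.10, adjusted *P* = 0.0194) and is uncertain. It had 10, 12 and 6 counts in DMSO against 23, 8 and 32 with VS-4718, the groups overlapped, and the call was lost without DMSO replicate 3 (0.85), VS-4718 replicate 1 (1.04) or VS-4718 replicate 3 (0.68) and in DESeq2 (1.09).

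The integrin chains best known from leukocytes that were tested are *Itga4*, *Itgae*, *Itgb2* and *Itgb7*. *Itgb2*, the common chain of leukocyte integrins, was 14.8, 14.3 and 12.9 CPM in DMSO. It fell to 5.88, 6.99 and 6.41 CPM with PROTAC FAK degrader 1 (2.18-fold lower, adjusted *P* = 5.72e-13) and to 7.01, 7.12 and 8.20 CPM with VS-4718 (1.87-fold lower, adjusted *P* = 1.74e-10). Decreases with GSK215 (-0.43) and defactinib (-0.36) were smaller, and all 12 libraries of these 4 drugs lay below the controls. With IN10018, GSK2256098 and BSJ-04-0146 the libraries overlapped those of DMSO.

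*Itgb7*, which pairs with α4 or αE, was 31.1, 33.2 and 34.0 CPM in DMSO, 16.7, 16.3 and 17.4 CPM with PROTAC FAK degrader 1 (1.95-fold lower, adjusted *P* = 1.69e-17) and 21.2, 19.8 and 21.1 CPM with VS-4718 (1.58-fold lower, adjusted *P* = 1.09e-12). Defactinib also lowered it (-0.28), whereas it rose to 38.7, 40.4 and 39.2 CPM with BSJ-04-0146 (1.20-fold, adjusted *P* = 4.63e-05). The GSK2256098 increase (0.17) was lost without any 1 of DMSO replicates 1 and 2 or the 3 GSK2256098 libraries (0.14 to 0.18) and in DESeq2 (0.17). The α chains that would pair with β2 were at or near 0, and so was the pan-leukocyte gene *Ptprc*, with 0 or 1 counts in every library. *Cd68*, the best detected of the 10 leukocyte and macrophage markers, was 2.94, 3.53 and 3.58 CPM in DMSO and rose with PROTAC FAK degrader 1 (10.4 to 11.4 CPM), where *Itgb2* and *Itgb7* fell, and with BSJ-04-0146 (6.66 to 8.08 CPM), where *Itgb7* rose. It also rose with GSK215 (4.91 to 6.70 CPM) and VS-4718 (4.06 to 5.30 CPM), where *Itgb2* fell. *Csf1r*, the only other marker of the list that could be tested, was called higher with BSJ-04-0146 (1.11). The summed level of these 10 markers was 3.93 to 4.29 CPM in DMSO, 11.3 to 12.2 CPM with PROTAC FAK degrader 1, 7.90 to 9.45 CPM with BSJ-04-0146, 6.62 to 8.21 CPM with GSK215 and 5.36 to 6.25 CPM with VS-4718. The part of these markers in the *Itgb2* and *Itgb7* results was not tested.

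*Itga4*, which pairs with β1 or β7, was 1.36, 1.92 and 1.90 CPM in DMSO, 4.20, 3.26 and 3.26 CPM with GSK215 (2.04-fold higher, adjusted *P* = 2.84e-05) and 3.01, 3.36 and 3.37 CPM with BSJ-04-0146 (1.87-fold higher, adjusted *P* = 0.000217). Both groups were above all controls. The defactinib increase (0.71) was lost without DMSO replicate 1 (0.57) or defactinib replicate 1 (0.54), and 1124 of its 13978 exon bases lie opposite *Cerkl*. *Itgae*, at 3.57, 3.76 and 4.41 CPM in DMSO, was 1.93, 2.19 and 2.15 CPM with PROTAC FAK degrader 1 (1.88-fold lower, adjusted *P* = 1.30e-06) and 5.12, 6.30 and 5.68 CPM with GSK215 (1.46-fold higher, adjusted *P* = 0.000314). Its defactinib increase (0.40) was lost without DMSO replicate 1 (0.34), DMSO replicate 2 (0.37) or defactinib replicate 1 (0.35) and in DESeq2 (0.40).

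Of the 9 tested laminin genes, 6 were called higher and 1 lower with defactinib (22.4% of all genes called), 5 and 1 with VS-4718 (39.2%), 2 and 0 with GSK2256098 (12.5%) and 0 and 2 with IN10018 (13.3%). The counts were 2 higher and 5 lower with PROTAC FAK degrader 1 (66.8%), 5 and 2 with GSK215 (54.7%) and 3 and 3 with BSJ-04-0146 (54.6%). *Lama4*, the α chain of endothelial and nerve basal laminae, was 8.82, 9.06 and 9.06 CPM in DMSO. It rose to 19.8, 15.4 and 17.1 CPM with GSK215 (1.93-fold, log2 fold change 0.95 ± 0.096 SE, adjusted *P* = 5.12e-11) and to 15.2, 15.3 and 17.1 CPM with VS-4718 (1.77-fold, adjusted *P* = 2.19e-09). Increases also held with defactinib (14.4, 12.9 and 13.7 CPM, 1.52-fold) and BSJ-04-0146 (12.9, 12.8 and 13.9 CPM, 1.47-fold), and every one of these 12 libraries exceeded the controls. The GSK2256098 increase (0.36) was lost without its replicate 2 (0.34) or 3 (0.26). PROTAC FAK degrader 1 took *Lama4* the other way, to 4.13, 5.06 and 5.46 CPM (1.85-fold lower, adjusted *P* = 2.01e-08). Among 5 endothelial markers, *Cdh5* and *Kdr* had at most 3 counts in every library and *Vwf* was called higher with the 3 PROTACs. Their summed level was 0.659 to 0.902 CPM in DMSO, 0.694 to 1.58 CPM with GSK215, 1.06 to 1.36 CPM with BSJ-04-0146 and 0.678 to 1.10 CPM with PROTAC FAK degrader 1, and their part in the *Lama4* result was not tested.

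*Lama2*, mutated in a congenital muscular dystrophy with neuropathy, was 6.24, 7.26 and 6.39 CPM in DMSO and 3.72, 3.81 and 3.78 CPM with PROTAC FAK degrader 1 (1.76-fold lower, adjusted *P* = 1.93e-07). VS-4718 gave 9.11, 8.82 and 9.34 CPM (1.37-fold higher, adjusted *P* = 0.000327) and GSK215 10.6, 10.4 and 8.94 CPM (1.49-fold higher, adjusted *P* = 9.83e-06), without overlap. With BSJ-04-0146 the libraries, at 5.42, 6.13 and 5.44 CPM, lay below the controls, and the difference did not pass the threshold (-0.23, adjusted *P* = 0.0923). *Lama5*, the most abundant α chain, ranged from 843 to 865 CPM in DMSO, and its log2 fold changes lay between -0.11 and 0.16. It rose with PROTAC FAK degrader 1 (947, 928 and 954 CPM, 0.14, adjusted *P* = 0.00071) and defactinib (0.16). The VS-4718 call (0.10) was lost without DMSO replicate 1 (0.09), 2 (0.10) or 3 (0.08) or VS-4718 replicate 1 (0.07), the BSJ-04-0146 call (-0.11) without BSJ-04-0146 replicate 1 (-0.09) or with library totals alone (-0.0051), and the GSK215 value of -0.01 became 0.12 and past the threshold with library totals alone.

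Of the β chains, *Lamb2* rose with 6 drugs and *Lamb1* fell with PROTAC FAK degrader 1. *Lamb2*, a chain of synaptic and nerve laminins, was 77.2, 77.1 and 78.2 CPM in DMSO. It was 116, 121 and 119 CPM with GSK215 (1.53-fold higher, adjusted *P* = 1.18e-15), 103, 114 and 120 CPM with BSJ-04-0146 (1.45-fold, adjusted *P* = 6.68e-14) and 113, 107 and 106 CPM with PROTAC FAK degrader 1 (1.40-fold, adjusted *P* = 3.32e-13). Defactinib (1.33-fold), VS-4718 (1.26-fold) and GSK2256098 (1.18-fold) raised it too, all 18 treated libraries stood above the controls, and only IN10018 (75.0, 74.6 and 79.4 CPM) overlapped them. It was the 1 gene among the 29 called higher with 6 drugs. *Lamb1* was 518, 533 and 531 CPM in DMSO and 344, 345 and 346 CPM with PROTAC FAK degrader 1 (1.53-fold lower, adjusted *P* = 1.15e-19). Its other log2 fold changes were within 0.20 of 0, the IN10018 call (-0.11) was lost without DMSO replicate 2 (-0.10), DMSO replicate 3 (-0.11) or IN10018 replicate 2 (-0.10), and the BSJ-04-0146 value of -0.02 became 0.086 and past the threshold with library totals alone.

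*Lamb3*, a chain of epithelial laminin, was 0.407, 0.865 and 0.371 CPM in DMSO (9, 23 and 9 counts) and 2.04, 1.66 and 1.18 CPM with GSK215 (2.85-fold higher, adjusted *P* = 0.000223). Its increases with defactinib (1.00) and BSJ-04-0146 (1.06) were above all controls yet fragile. The first was lost without DMSO replicate 1 (0.83), DMSO replicate 3 (0.78), defactinib replicate 1 (0.99) or defactinib replicate 3 (0.93), and the second without DMSO replicate 1 (0.89) or 3 (0.83). Among 5 epithelial markers, *Epcam*, *Krt5* and *Krt14* had at most 3 counts in every library, whereas *Krt8* and *Krt18* were called higher with GSK215 and BSJ-04-0146. The summed level of the 5 was 4.30 to 4.89 CPM in DMSO, 7.91 to 9.23 CPM with GSK215, 8.49 to 10.2 CPM with BSJ-04-0146 and 3.66 to 4.91 CPM with defactinib, and the part of these markers in the *Lamb3* result was not tested. *Lamb3* with IN10018, at 1.25, 0.947 and 1.08 CPM, was above all controls as well and was called only without DMSO replicate 2 (1.48). With PROTAC FAK degrader 1 it was called only without that drug's replicate 1 (-1.39).

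Among γ chains, *Lamc1*, the γ chain of most laminins, was 494, 486 and 487 CPM in DMSO and 369, 365 and 389 CPM with BSJ-04-0146 (1.31-fold lower, adjusted *P* = 6.81e-13). With PROTAC FAK degrader 1, where *Lamb1* and *Itgb1* fell, *Lamc1* did not pass the threshold (462, 470 and 474 CPM, -0.06, 95% interval -0.13 to 0.01). Its GSK215 decrease (-0.12) became 0.0072 with library totals alone. *Lamc3* was called with PROTAC FAK degrader 1 only (-1.50, adjusted *P* = 0.000796), from 33, 28 and 19 counts in DMSO to 6, 8 and 9 counts, without overlap.

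Drugs used at the same dose were compared directly over 11 pairs, 10 at 1 μM and 1 at 0.1 μM, each with *P* values adjusted over the 16070 genes of that pair. At 0.1 μM, GSK215 and BSJ-04-0146 differed in 16 of the 29 genes, 13 higher and 3 lower with GSK215, where 22.5% of all genes differed, 9.88% higher and 12.6% lower. *Lama2* was 1.75-fold higher with GSK215 than with BSJ-04-0146 (log2 difference 0.80, 95% interval 0.58 to 1.03, adjusted *P* = 9.58e-07), with the 3 GSK215 libraries above the others. *Itgb3* was lower with GSK215 (-0.76, -1.04 to -0.48, adjusted *P* = 5.78e-05), as were *Itgb2* (-0.46) and *Itgb7* (-0.39). *Itga3* (0.28), *Itgav* (0.28), *Itgb1* (0.26), *Itga7* (0.21), *Lamc1* (0.27) and *Lamb1* (0.16) were higher with GSK215. For *Itga2*, the gene with the largest increase in both groups, the difference was not past the threshold (0.29, 95% interval -0.11 to 0.70), and neither was that of *Itga8* (-0.32, -0.57 to -0.07, adjusted *P* = 0.0569).

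**Figure D4:**
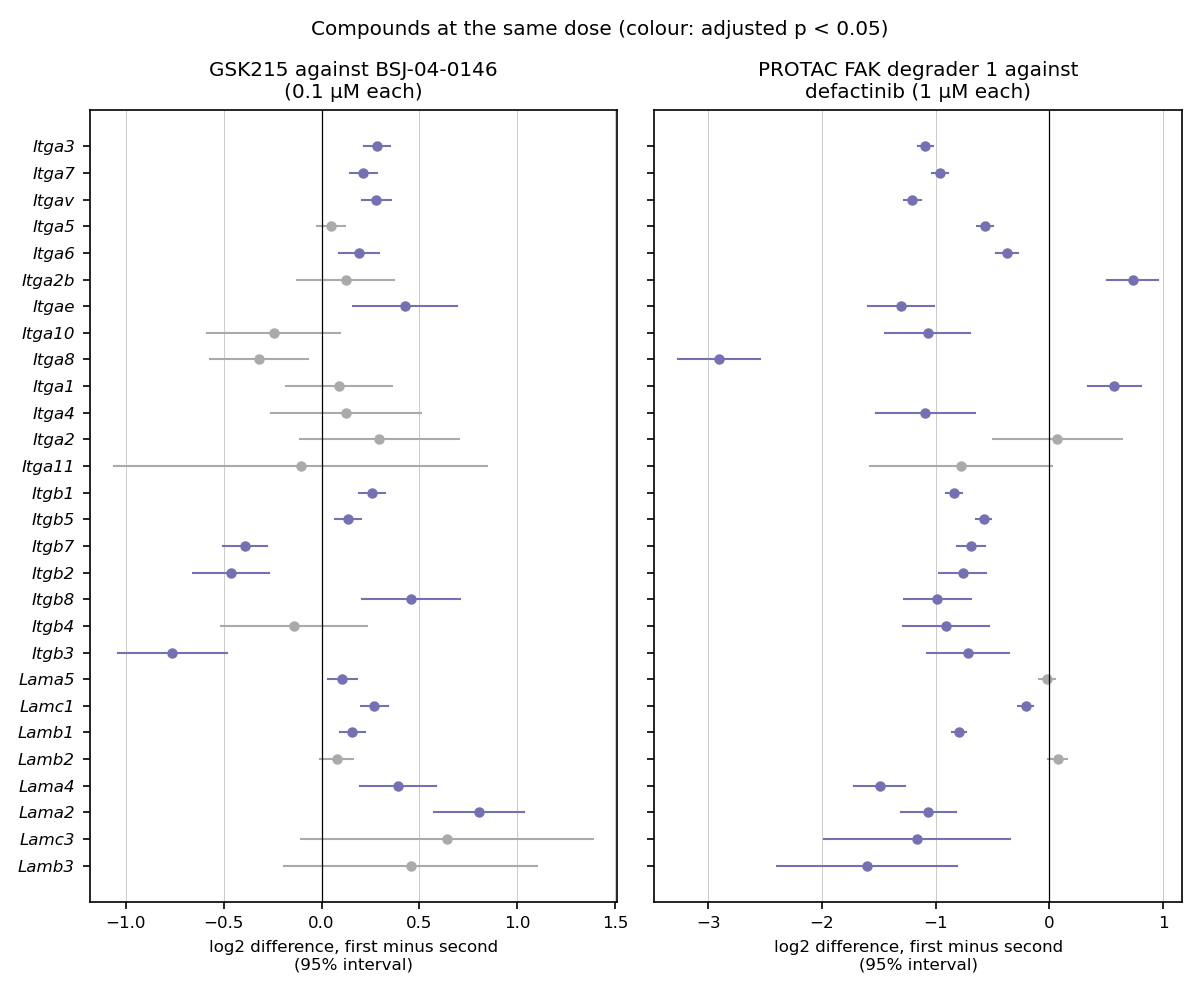
Log2 difference between 2 drugs at the same dose, with 95% intervals that are not adjusted for the number of genes, for 28 of the 29 tested genes: GSK215 minus BSJ-04-0146 at 0.1 μM and PROTAC FAK degrader 1 minus defactinib at 1 μM, coloured where the edgeR adjusted *P* was under 0.05. Most values of the first pair lie within 0.5 of 0, and those of the second pair extend to -2.90 for *Itga8*.

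PROTAC FAK degrader 1 differed from every kinase inhibitor at 1 μM in most of the 29 genes. Against defactinib 25 were called, 2 higher and 23 lower (68.9% of all genes, 34.9% higher and 34.0% lower). Against VS-4718 there were 22 calls, 3 higher and 19 lower (68.9%, 34.6% and 34.3%), against GSK2256098 25, 4 higher and 21 lower (67.6%, 34.1% and 33.6%), and against IN10018 25, 5 higher and 20 lower (63.5%, 32.4% and 31.1%). *Itga8* was lower by 2.90, 2.36, 2.36 and 1.85 on the log2 scale than with defactinib, VS-4718, GSK2256098 and IN10018 in turn, and *Itgav* by 1.20, 1.17, 1.04 and 0.87. *Lama4* was lower by 1.49, 1.71, 1.24 and 0.84. Conversely *Itga1* was higher by 0.57, 0.64, 0.56 and 0.63, and *Itga2b* by 0.73, 0.99, 0.95 and 0.70. Intervals of the *Lama5* and *Lamb2* differences from defactinib were narrow and included 0 (-0.09 to 0.05 and -0.01 to 0.16).

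The 4 kinase inhibitors also differed among themselves. IN10018 stood below defactinib in 18 genes and above it in 3 (21 calls, 34.5% of all genes, 17.9% higher and 16.6% lower), with *Itga8* 1.05 lower (adjusted *P* = 5.78e-08), *Lama4* 0.66 lower (1.08e-06) and *Itgb2* 0.49 higher (1.89e-05). Against VS-4718 it gave 20 calls, 6 higher and 14 lower (40.9%, 19.6% and 21.3%), among them *Lama4* (-0.87), *Itgb8* (-0.69), *Itgb2* (1.04) and *Lamb3* (1.76). Against GSK2256098 it gave 16, 3 higher and 13 lower (20.9%, 9.78% and 11.2%). GSK2256098 was called against defactinib in 13 genes, 1 higher and 12 lower (11.5%, 5.89% and 5.59%), a count that fell to 8 without GSK2256098 replicate 1 and in which *Lamb3* differed most (-1.27), and against VS-4718 in 10, 4 higher and 6 lower (27.1%, 12.8% and 14.3%).

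VS-4718 and defactinib differed in 12 genes, 3 higher and 9 lower with VS-4718 (34.0% of all genes, 18.0% higher and 16.0% lower). The largest difference was that of *Lamb3*, a low gene with 7, 7 and 10 counts under VS-4718 and 26, 22 and 31 under defactinib (-1.80, 95% interval -2.57 to -1.03, adjusted *P* = 0.000233). It was the 1 called gene of this pair that differed by at least 0.58. The β2 and β7 chain genes were lower with VS-4718, *Itgb2* by 0.54 (adjusted *P* = 1.83e-05) and *Itgb7* by 0.38 (9.89e-07), as were *Itga8* by 0.54 and *Itga6* by 0.39. *Itgb1*, *Itga3* and *Itgav* were not called, with intervals from -0.12 to 0.01, -0.08 to 0.04 and -0.11 to 0.03. Only same-dose drugs were compared, so the 1 μM and 0.1 μM values above stand side by side without a test.

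Genes that work with integrins and laminins were read from 4 lists. In the list of integrin activators and adhesion adaptors, 28 of 31 genes were tested. VS-4718 gave 17 higher and 2 lower, GSK215 12 and 8, BSJ-04-0146 13 and 8, PROTAC FAK degrader 1 11 and 8, defactinib 5 and 4, GSK2256098 8 and 1, and IN10018 4 and 3. The share called was 67.9% with VS-4718, where 39.2% of all tested genes were called, and 32.1% with defactinib (22.4%) and GSK2256098 (12.5%). It was 7 of 28 genes with IN10018 (13.3%), 71.4% with GSK215 (54.7%) and 75.0% with BSJ-04-0146 (54.6%), while the 67.9% with PROTAC FAK degrader 1 was close to the 66.8% of all genes. *Tns1*, a tensin that binds β chain tails, was 43.0, 44.8 and 41.8 CPM in DMSO, 234, 241 and 232 CPM with GSK215 and 314, 309 and 351 CPM with BSJ-04-0146 (7.51-fold higher, adjusted *P* = 1.96e-36), the largest change of the 4 lists among genes of at least 5 CPM. *Flna*, which encodes filamin A, fell 1.72-fold with PROTAC FAK degrader 1, where the kinase gene *Fyn* rose 2.20-fold and *Tns2* 1.87-fold. *Ptk2* itself, the gene of FAK, was 92.9, 95.4 and 97.7 CPM in DMSO. It was lower with GSK215 (-0.29), BSJ-04-0146 (-0.26), VS-4718 (-0.18), defactinib (-0.14) and GSK2256098 (-0.13). Values with PROTAC FAK degrader 1 and IN10018 are not given here, so these decreases do not stand for every drug.

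Non-integrin laminin receptors and membrane partners of integrins, 19 of 20 tested, gave 12 higher and 1 lower with defactinib, 10 and 2 with VS-4718, 8 and 2 with GSK2256098, 0 and 3 with IN10018, 8 and 7 with PROTAC FAK degrader 1, 11 and 7 with GSK215 and 6 and 7 with BSJ-04-0146. In the same order these are 68.4%, 63.2%, 52.6%, 15.8%, 78.9%, 94.7% and 68.4% of the list, beside 22.4%, 39.2%, 12.5%, 13.3%, 66.8%, 54.7% and 54.6% of all genes. The syndecan gene *Sdc1* was 159, 154 and 160 CPM in DMSO and 56.0, 49.5 and 52.3 CPM with PROTAC FAK degrader 1 (3.00-fold lower, adjusted *P* = 3.44e-30). *Sdc3* rose 2.79-fold with BSJ-04-0146. *Adgrg6*, a laminin-binding receptor needed for myelination, fell 1.94-fold with PROTAC FAK degrader 1, and *Cd47*, a partner of β3 integrin, rose 1.84-fold. The dystroglycan gene *Dag1* fell with PROTAC FAK degrader 1 (-0.74) and rose with the 2 PROTACs at 0.1 μM and 3 kinase inhibitors, by 0.12 to 0.27. *Dag1*, like *Ptk2* above, lies outside the rule for naming genes. *Dag1* was added after its values were seen.

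Basement membrane partners of laminins, 14 of 21 tested, gave 1 higher and 9 lower with PROTAC FAK degrader 1, 8 and 3 with GSK215, 7 and 3 with BSJ-04-0146, 6 and 0 with defactinib, 6 and 1 with VS-4718, 4 and 1 with GSK2256098 and 0 and 3 with IN10018. These are 71.4% of the list with PROTAC FAK degrader 1 (66.8% of all genes), 78.6% with GSK215 (54.7%), 71.4% with BSJ-04-0146 (54.6%), 42.9% with defactinib (22.4%), 7 of the 14 genes with VS-4718 (39.2%), 35.7% with GSK2256098 (12.5%) and 21.4% with IN10018 (13.3%). *Nid1*, the nidogen that links laminin to collagen IV, was 113, 115 and 114 CPM in DMSO and 53.3, 54.8 and 56.7 CPM with PROTAC FAK degrader 1 (2.08-fold lower, adjusted *P* = 4.53e-25). *Sparc* fell 1.84-fold with that drug, *Col18a1* rose 2.37-fold with GSK215, and *Col4a2* rose 1.59-fold with VS-4718. Of the integrin ligands other than laminins, 16 of 22 were tested, with 9 lower and 3 higher with PROTAC FAK degrader 1, 12 higher and 4 lower with GSK215, 10 and 4 with BSJ-04-0146, 8 and 1 with defactinib, 7 and 1 with VS-4718, 6 and 1 with GSK2256098 and 1 and 4 with IN10018. In the same order 12, 16, 14, 9, 8, 7 and 5 of these 16 ligand genes were called, against 66.8%, 54.7%, 54.6%, 22.4%, 39.2%, 12.5% and 13.3% of all genes. *Ccn2* fell 4.70-fold and *Thbs1* 2.97-fold with PROTAC FAK degrader 1, while *Thbs2* rose 3.53-fold and the osteopontin gene *Spp1* 2.38-fold with GSK215. None of the 4 lists was tested as a set.

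**Figure D5:**
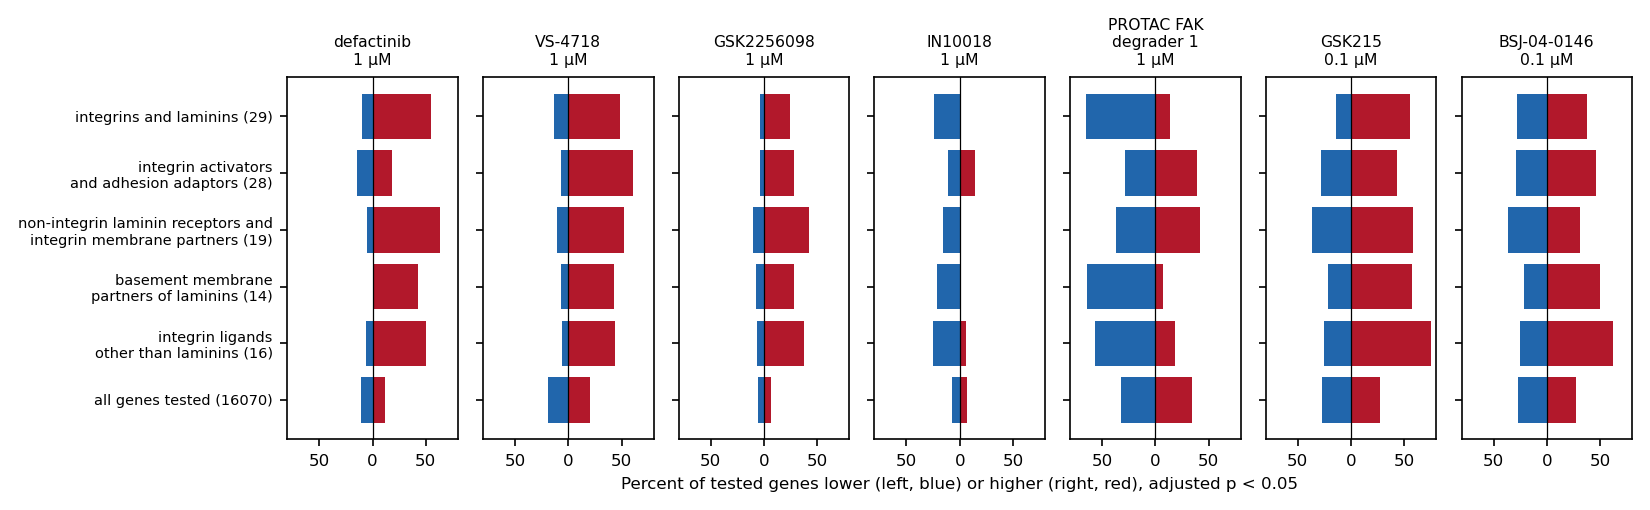
Percent of tested genes called lower (left, blue) and higher (right, red) against DMSO with each drug, for the 29 integrin and laminin genes, the 4 lists of partner genes and all 16070 tested genes, with the number tested in parentheses. With PROTAC FAK degrader 1 the bar of integrins and laminins extends to 65.5% lower and 13.8% higher, beside 32.7% and 34.1% of all genes.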

How the data were processed

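Poly(A)-selected RNA from 24 MS03 cultures was sequenced. The authors deposited whole-number read counts per Ensembl gene, without normalization. The submitters' processing notes name Trimmomatic 0.36, STAR 2.5.2b, featureCounts in Subread 1.5.2 and GRCm38, and the strand setting is not given in the sources used here, so reads of genes that overlap on opposite strands may not be separable. Table columns were matched to samples by the library numbers in the labels, and groups come from the sample titles. Exon lengths and overlaps were read from the GENCODE M21 annotation of GRCm38, which holds 48970 of the 49315 identifiers. Exon length is the union over transcripts and overstates the length of genes with many isoforms.

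A single model of the counts was fitted by glmQLFit and glmQLFTest of edgeR 4.0.16 under R 4.3.3, after filterByExpr by group and TMM, with a coefficient per group and 16 residual degrees of freedom. Tests were two-sided, *P* values were adjusted by Benjamini-Hochberg over 16070 genes, and the threshold was 0.05. The fit was tested on simulated data. Replicates of a group differed by more than counting noise (chi-square per degree of freedom of at least 1.74), so none was treated as a copy.

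Full statistics are given for members called with a log2 change of at least 0.58 in either direction with at least 1 drug, which were 23 of the 29 tested (1 of them enters the counts and is not reported here by name), and for up to 4 genes per partner list of at least 5 CPM with separate libraries. *Itga5*, *Itga6*, *Itgb4*, *Itgb5*, *Lama5* and *Lamc1* are described beside them although they are outside that rule. The list genes *Ptk2* and *Dag1* are outside it as well. Members, lists and tests were chosen with earlier results of these data known. Alternatives were library totals alone, DESeq2 1.42.0, limma-trend (limma 3.58.1) on log2(CPM + 4), a block for the replicate number, dropping the count filter, only the 6 libraries of a comparison, and leaving out each library.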

Additional observations from a re-analysis of the deposited data

How the results depend on the processing

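Of the 203 log2 fold changes of the 29 genes with 7 drugs, 114 were called, and 90 of these calls were lost in none of the alternatives. For a value called in at least 1 of the 2 settings compared, only library totals alone turned a direction: with GSK215, *Itga3* became 0.10, *Lama5* 0.12 and *Lamc1* 0.0072, and with BSJ-04-0146 *Lamb1* became 0.086, on the log2 scale. Uncalled values near 0 also changed sign under other settings, leaving out a library included. Total counts of called genes stayed within 1.5 times of their value under library totals alone, DESeq2, limma-trend, no filter, the replicate block and the fits of 6 libraries, but with library totals alone the genes called lower went from 4 to 2 with GSK215 and from 8 to 4 with BSJ-04-0146. The replicate numbers showed no clear sign of pairing the samples. The 21 correlations of deviations between same-numbered libraries lay between -0.18 and 0.15 with 1 over 0.1. Of 21 libraries, 6 correlated best with their own number, among them all 3 of GSK215. Deviations were taken from means of 3 libraries, so this check cannot exclude pairing. With the replicate block the counts against DMSO were 19 (defactinib), 18 (VS-4718), 8 (GSK2256098), 7 (IN10018), 23 (PROTAC FAK degrader 1), 21 (GSK215) and 19 (BSJ-04-0146), and *Itgb7* with GSK215 passed the threshold (-0.12). Leaving out 1 library gave 3 to 8 called genes for GSK2256098 against DMSO, which were 3 without GSK2256098 replicate 3 and 5 without its replicate 1 or DMSO replicate 2. It gave 4 to 7 for IN10018 against DMSO (4 without IN10018 replicate 2) and 8 to 12 for GSK2256098 against defactinib. The other ranges were 16 to 19 for defactinib, 16 to 19 for VS-4718, 22 to 24 for PROTAC FAK degrader 1, 18 to 21 for GSK215 and 17 to 20 for BSJ-04-0146 against DMSO, and 14 to 17 for GSK215 against BSJ-04-0146. Why calls were lost was not tested. Depth limits *Itga2*, *Itga11* and *Lamb3* in particular, which had at most 23 counts in any DMSO library.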
